A study of Mus musculus with 17 samples.

Results

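Tail-anchored membrane proteins carry a single hydrophobic segment at their C-terminus, and the 39 genes described here encode proteins of this kind, most of them SNAREs. They were chosen by name: 8 plasma membrane and endosomal syntaxins, 5 VAMPs, the endosomal SNAREs Vti1a and Vti1b, 10 ER and Golgi SNAREs, 6 other proteins of the endoplasmic reticulum (ER), 7 proteins of the mitochondrial outer membrane, and emerin (Emd) of the inner nuclear membrane. Of the 39, 38 had a row under their Ensembl ID among the 55416 genes counted, and all 38 passed the filter on low counts. Vamp7 had no row under its ID and was not analysed here.

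The study sequenced polyA RNA from E14Tg2a.4 mouse embryonic stem cells with a FLAG-TEV-AviTag on ribosomal protein Rpl31 (the Rpl31-FTA line), grown in serum with leukemia inhibitory factor. Transfected ALIBi plasmids biotinylated ribosomes lying close to the ER, and these were affinity purified and eluted with TEV protease. An aliquot of each lysate, kept back before purification, gave a whole-cell library. The cells had received an siRNA against Nmd3, the adaptor that exports the large ribosomal subunit from the nucleus, an siRNA against Gnl3, a nucleolar GTPase also called nucleostemin, or a scramble siRNA.

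ER ribosome-bound RNA was measured in 3 replicates after Nmd3 siRNA, 3 after Gnl3 siRNA and 2 after scramble siRNA. Whole-cell RNA was measured in 3 replicates after each siRNA, 17 libraries in all. Every group, scramble included, carries the tagged Rpl31 and the ALIBi plasmids, so no library is from unmodified cells. The labels name biological replicates but not whether they were separate cultures, so p-values measure the spread between these samples.

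In the textbook account, a secretory or membrane protein with a signal peptide meets the signal recognition particle while it is being made, which brings its ribosome to the ER. The anchor of a tail-anchored protein leaves the ribosome only once translation ends, and the finished protein is then delivered to a membrane by the GET pathway, the ER membrane protein complex (EMC) or other routes. SNAREs are the proteins whose helices zip together to fuse a vesicle with its target membrane. Setting ER ribosome-bound against whole-cell RNA asks which mRNAs hold a larger share on ribosomes near the ER than in whole-cell RNA. Whole-cell RNA also holds mRNA that is not on ribosomes, and no library held the RNA of all ribosomes. The ratio therefore does not separate nearness to the ER from ribosome loading.

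The anchors of the members are shown for the 4 with the highest and the 4 with the lowest ER to whole-cell ratio after scramble siRNA, because values in every library are given for these members below. Each line gives the last 99 bases of the coding sequence, 32 codons and the stop codon, from GENCODE M21 (GRCm38). Capitals mark the most hydrophobic stretch of 19 codons on the Kyte-Doolittle scale. The first set holds Vamp8 (endobrevin, a late endosomal SNARE), Fis1 (an adaptor of mitochondrial fission), Use1 (an ER SNARE of Golgi-to-ER transport) and Stx8 (a late endosomal syntaxin).
Vamp8: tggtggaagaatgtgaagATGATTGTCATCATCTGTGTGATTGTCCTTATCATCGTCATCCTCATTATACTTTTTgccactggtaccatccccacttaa
Fis1: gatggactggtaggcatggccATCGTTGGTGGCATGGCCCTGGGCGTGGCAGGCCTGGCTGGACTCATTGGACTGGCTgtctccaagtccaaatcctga
Use1: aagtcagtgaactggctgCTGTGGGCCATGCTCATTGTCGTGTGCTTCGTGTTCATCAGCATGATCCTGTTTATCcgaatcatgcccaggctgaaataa
Stx8: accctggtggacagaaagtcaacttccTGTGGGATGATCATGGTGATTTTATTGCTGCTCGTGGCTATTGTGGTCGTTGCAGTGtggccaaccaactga

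The second set holds Stx16 (a trans-Golgi syntaxin), Synj2bp (a mitochondrial outer membrane protein also called OMP25), Gosr1 (a Golgi SNARE also called GS28) and Cyb5b (the mitochondrial cytochrome b5).
Stx16: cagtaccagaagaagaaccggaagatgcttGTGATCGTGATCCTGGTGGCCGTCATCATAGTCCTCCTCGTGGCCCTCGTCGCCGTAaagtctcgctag
Synj2bp: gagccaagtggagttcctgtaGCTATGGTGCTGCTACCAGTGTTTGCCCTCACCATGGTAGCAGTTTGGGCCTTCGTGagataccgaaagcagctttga
Gosr1: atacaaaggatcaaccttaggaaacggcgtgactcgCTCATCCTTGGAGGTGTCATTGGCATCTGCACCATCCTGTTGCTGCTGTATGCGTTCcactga
Cyb5b: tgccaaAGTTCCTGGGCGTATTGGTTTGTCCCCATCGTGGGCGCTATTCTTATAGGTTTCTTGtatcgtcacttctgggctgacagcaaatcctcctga

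In these 8 sequences the capitals end 1 to 11 codons before the last amino acid's codon. Mean hydropathy of the stretch was 3.99 in Vamp8, 2.07 in Fis1, 2.99 in Use1 and 3.34 in Stx8. It was 3.8 in Stx16, 2.41 in Synj2bp, 2.57 in Gosr1 and 1.66 in Cyb5b, so both sets hold strong and weak anchors. Over all 38 members the stretch ended within 15 residues of the C-terminus in 37, with a median of 5 residues after it. Stx17, the autophagosomal syntaxin known for a hairpin of membrane segments, was the exception with 55. The proteins were 101 to 503 residues long.

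All 38 genes were counted in every library used, the lowest being Vamp8 with 73 to 220 counts and Stx17 with 78 to 173. Per kilobase of transcript in scramble whole-cell RNA, Cyb5a, the ER cytochrome b5, had the highest level at 84.6 ± 2.4 counts per M gene counts (CPM) per kilobase (SD, n = 3). Use1 followed at 68.2 ± 3.5, Vapa, an ER protein of membrane contact sites, at 63.2 ± 0.54 and Fis1 at 62.8 ± 0.77 CPM per kilobase. Vapa and Fis1 did not differ beyond their spread. The mitophagy receptor Bnip3 stood at 58.0 ± 4.5 and Emd at 50.1 ± 1.6 CPM per kilobase. At the low end were Stx17 at 1.04 ± 0.22, the plasma membrane syntaxin Stx2 at 3.48 ± 0.44 and Vti1a at 3.96 ± 0.13 CPM per kilobase. Among the VAMPs, Vamp3 (cellubrevin, of recycling endosomes) stood at 41.7 ± 1.7 and Vamp2 (synaptobrevin) at 6.06 ± 0.18 CPM per kilobase.

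Libraries held 15.2 to 29.9 M gene counts. Of the whole-cell libraries, the labels mark replicate 3 of Gnl3 siRNA and replicate 2 of Nmd3 siRNA as left out by the authors as outliers, and the results below use the other 15 libraries unless all 17 are named. Log2 CPM of these 2 libraries correlated across genes at 0.922 to 0.942 with the 7 other whole-cell libraries, against 0.988 to 0.993 among those 7. Mitochondrial RNA took 6.14% of counts in the excluded Gnl3 library and 0.769% in the excluded Nmd3 library. It took 1.15% in replicate 1 of the Nmd3 whole-cell libraries and 1.86% to 2.03% in the other 6. In the ER ribosome-bound libraries it took 0.0204% to 0.0239%. Of the 15 libraries used, 2 also stood apart from their replicates. Replicate 2 of the Nmd3 ER ribosome-bound libraries gave chi-square values per gene of 8.59 to replicate 1 and 10.18 to replicate 3, where replicates 1 and 3 gave 3.14, and held Gnl3 mRNA at 262.9 CPM, against 164.2 and 179.8 CPM. Replicate 1 of the Nmd3 whole-cell libraries gave 8.59 to replicate 3, where the other whole-cell replicate pairs used gave 2.04 to 3.84. The Nmd3 mRNA itself had 24.1 to 25.2 CPM on ER ribosomes and 43.2 to 43.7 CPM in whole-cell RNA under its siRNA, against 120.0 to 123.7 and 150.2 to 153.8 CPM after scramble siRNA. Gnl3 was at 26.9 to 31.6 and 54.2 to 70.2 CPM after its siRNA, against 170.0 to 177.4 and 256.0 to 272.0 CPM after scramble. The 10 embryonic stem cell markers summed to 6537 to 10160 CPM per library, against 12.6 to 39.7 CPM for 7 fibroblast or feeder markers and 24.7 to 40.3 CPM for 6 primitive endoderm markers.

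On ER ribosomes the members stayed close to their whole-cell level. After scramble siRNA 12 of the 38 were higher in ER ribosome-bound than in whole-cell RNA and 3 were lower (edgeR quasi-likelihood test, adjusted p under 0.05 over all genes). Over all 18271 genes tested, 25.1% were higher and 25.3% lower, so higher calls were near the background share and lower calls below it. After Nmd3 siRNA 8 members were higher and 3 lower, where 24.5% and 25.6% of all genes were. After Gnl3 siRNA 11 were higher and 5 lower, where 23.3% and 24.9% of all genes were. The median log2 change of the members was 0.05 after Nmd3 siRNA, 0.05 after Gnl3 siRNA and 0.10 after scramble, against 0.01, 0.02 and 0.02 over all genes.

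Changes of single members were small. They ran between -0.71 and 0.65 on the log2 scale after Nmd3 siRNA, -0.58 and 0.49 after Gnl3 siRNA and -0.48 and 0.59 after scramble, with standard errors (SE) of 0.06 to 0.19. Within 0.5 of 0 lay 35, 37 and 37 of the 38. In these bulk libraries fewer cells with an mRNA and less of it per cell cannot be told apart, and each value is a share of its library, not an amount per cell.

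These counts depended on the libraries left out and on length. With all 17 libraries, whose biological coefficient of variation was 0.236 against 0.0625 for the 15, 1 member was higher (Emd) and 1 lower (Stx16) after Nmd3 siRNA, 0 and 2 (Stx16, Synj2bp) after Gnl3 siRNA, and 0 and 1 (Stx16) after scramble. Over all genes, 7.71% were then higher and 7.5% lower after Nmd3 siRNA, 10.3% and 14.2% after Gnl3 siRNA, and 5.14% and 7.56% after scramble. The changes of Vamp8 (-0.36), Fis1 (-0.48), Stx4a (-0.16), Sec22b (-0.14), Vti1b (-0.32) and Cyb5a (-0.01) after Nmd3 siRNA then turned negative and none of the 6 passed. With each library's trend on coding length as an offset, 1 member was higher and 21 lower after Nmd3 siRNA, 0 and 20 after Gnl3 siRNA, and 0 and 16 after scramble. In that fit of 14276 genes 21.2% were higher and 28.3% lower after Nmd3 siRNA, 20.5% and 27.3% after Gnl3 siRNA, and 21.6% and 26.4% after scramble. The members' median was then -0.26, -0.21 and -0.17. In that fit the members' lower calls stood above the share over all genes and their higher calls below it, a count given with no test of the list. The 1 member still called higher was Emd after Nmd3 siRNA (0.26, adjusted p = 0.0193).

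**Figure D1:**
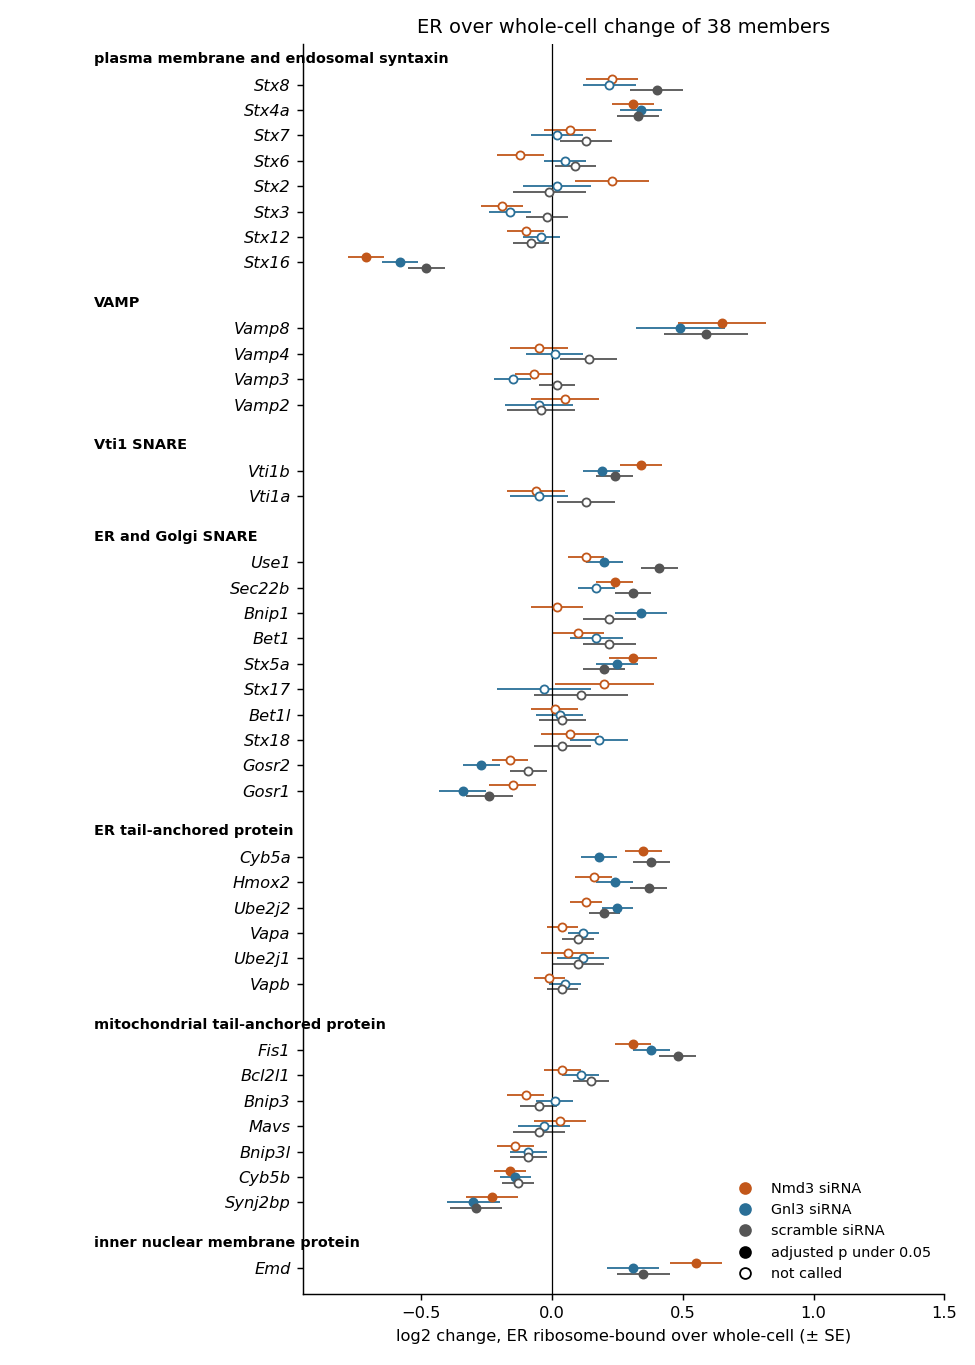
Log2 change of ER ribosome-bound over whole-cell RNA (x axis, ± SE) of the 38 members, grouped by role, after Nmd3, Gnl3 and scramble siRNA; filled points passed an adjusted p under 0.05. Points lie between -0.71 (Stx16) and 0.65 (Vamp8), both after Nmd3 siRNA, and most lie within 0.5 of 0.

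Among the 8 plasma membrane and endosomal syntaxins, 1 was higher and 1 lower after Nmd3 siRNA, 1 and 1 after Gnl3 siRNA, and 2 and 1 after scramble. Over all genes, 24.5% were higher and 25.6% lower after Nmd3 siRNA, 23.3% and 24.9% after Gnl3 siRNA, and 25.1% and 25.3% after scramble. Stx16 had 34.84, 35.01 and 35.65 CPM in its ER ribosome-bound libraries with Nmd3 siRNA, 36.2, 38.1 and 41.1 CPM in those with Gnl3 siRNA and 36.0 and 38.4 CPM in those with scramble. Whole-cell levels of Stx16 were 59.7 and 55.0 CPM with Nmd3 siRNA, 56.9 and 54.7 CPM with Gnl3 siRNA and 53.1, 48.3 and 51.9 CPM with scramble. Every ER ribosome-bound library was thus below every whole-cell library used, while the excluded Nmd3 whole-cell library stood at 32.1 CPM and the excluded Gnl3 one at 61.8 CPM. Its log2 change was -0.71 after Nmd3 siRNA (SE 0.07, adjusted p = 2.41e-10), -0.58 after Gnl3 siRNA (SE 0.07, adjusted p = 2.03e-08) and -0.48 after scramble (SE 0.07, adjusted p = 1.23e-06). Stx16 was the member called lower after every siRNA also with all 17 libraries.

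Stx8 had 23.9, 22.8 and 26.7 CPM in its ER ribosome-bound libraries with Nmd3 siRNA, 23.4, 22.4 and 23.2 CPM in those with Gnl3 siRNA and 25.2 and 25.7 CPM in those with scramble. Whole-cell levels of Stx8 were 22.2 and 19.2 CPM with Nmd3 siRNA, 18.5 and 19.9 CPM with Gnl3 siRNA and 17.6, 20.9 and 18.5 CPM with scramble. The fractions did not overlap among the libraries used, if narrowly, and the excluded Nmd3 library was at 43.1 CPM. The change passed the test after scramble (0.40, SE 0.10, adjusted p = 0.000854) and not after Nmd3 siRNA (0.23, adjusted p = 0.0517) or Gnl3 siRNA (0.22, adjusted p = 0.0727). With the lysate number as a block, which pairs both fractions of a lysate, Stx8 also passed after Nmd3 siRNA (adjusted p = 0.0419). Stx4a, the syntaxin of constitutive fusion at the plasma membrane, was higher after each siRNA, by 0.31, 0.34 and 0.33 after Nmd3, Gnl3 and scramble siRNA (SE 0.08 each). Whether counting used strand is not stated, so reads of a member and of a gene it overlaps on the other strand may not be told apart. This holds for Hmox2 (with Cdip1), Gosr2 (with C130046K22Rik), Bet1l (with Ric8a), Stx18 (with Nsg1), Bnip3 and Synj2bp (each with an unnamed gene model). Stx2, Stx3, Stx6, Stx7 and Stx12 lay between -0.19 and 0.23 and passed under no siRNA, although Stx3 (-0.17) passed after Gnl3 siRNA with the block (adjusted p = 0.0458).

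Of the 4 VAMPs measured, Vamp8 was higher after each siRNA and the others passed under none. Vamp8 had 8.89, 8.46 and 7.70 CPM in its ER ribosome-bound libraries with Nmd3 siRNA, 7.38, 7.36 and 7.90 CPM in those with Gnl3 siRNA and 8.58 and 6.56 CPM in those with scramble. Whole-cell levels of Vamp8 were 5.93 and 4.70 CPM with Nmd3 siRNA, 4.80 and 5.57 CPM with Gnl3 siRNA and 5.21, 4.88 and 4.75 CPM with scramble. The 2 fractions did not overlap among the libraries used, but the excluded Nmd3 whole-cell library, at 15.7 CPM, was above all of them. The log2 change was 0.65 after Nmd3 siRNA (SE 0.17, adjusted p = 0.00129), 0.49 after Gnl3 siRNA (SE 0.17, adjusted p = 0.0143) and 0.59 after scramble (SE 0.16, adjusted p = 0.00248). Vamp8 has the shortest coding sequence of the members, 303 bases, and the offset for coding length took it out of the calls after every siRNA. Vamp2, Vamp3 and Vamp4 lay between -0.15 and 0.14. Of the Vti1 pair, Vti1b was higher after each siRNA (0.34, 0.19 and 0.24 after Nmd3, Gnl3 and scramble, SE 0.07 to 0.08), and overlaps Arg2 on the other strand. Vti1a, its relative in endosomal and trans-Golgi fusion, lay between -0.06 and 0.13.

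The 10 ER and Golgi SNAREs, which carry cargo between these compartments, gave 2 higher calls and 0 lower after Nmd3 siRNA, 3 and 2 after Gnl3 siRNA, and 3 and 1 after scramble. Of all genes, 23.3% to 25.1% were higher and 24.9% to 25.6% lower after a single siRNA. Use1 had 82.7, 79.6 and 76.5 CPM in its ER ribosome-bound libraries with Nmd3 siRNA, 75.3, 77.3 and 76.2 CPM in those with Gnl3 siRNA and 90.4 and 89.2 CPM in those with scramble. Whole-cell levels of Use1 were 80.6 and 64.5 CPM with Nmd3 siRNA, 67.0 and 62.4 CPM with Gnl3 siRNA and 64.6, 70.3 and 64.2 CPM with scramble. Only Nmd3 whole-cell replicate 1 lay within the range of the ER ribosome-bound libraries. Use1 was higher after scramble (0.41, SE 0.07, adjusted p = 4.9e-06) and Gnl3 siRNA (0.20, SE 0.07, adjusted p = 0.0204) and did not pass after Nmd3 siRNA (0.13, SE 0.07, adjusted p = 0.135).

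Gosr1 had 37.3, 30.5 and 32.9 CPM in its ER ribosome-bound libraries with Nmd3 siRNA, 30.7, 33.5 and 26.7 CPM in those with Gnl3 siRNA and 32.2 and 32.0 CPM in those with scramble. Whole-cell levels of Gosr1 were 36.4 and 37.3 CPM with Nmd3 siRNA, 39.5 and 35.5 CPM with Gnl3 siRNA and 39.2, 35.9 and 36.8 CPM with scramble. The fractions overlapped after Nmd3 siRNA and not after the others. Gosr1 was lower after Gnl3 siRNA (-0.34, SE 0.09, adjusted p = 0.00211) and scramble (-0.24, SE 0.09, adjusted p = 0.0272, and 0.0717 with the block), with -0.15 after Nmd3 siRNA (adjusted p = 0.182). Gosr2 (membrin), another Golgi SNARE, was lower after Gnl3 siRNA (-0.27, SE 0.07, adjusted p = 0.00137). Its changes after Nmd3 siRNA (-0.16) and scramble (-0.09) did not pass.

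The Golgi syntaxin Stx5a was higher after each siRNA, by 0.31, 0.25 and 0.20 after Nmd3, Gnl3 and scramble (SE 0.08 to 0.09), though not after scramble with the block (adjusted p = 0.0602). Sec22b, the R-SNARE of ER-to-Golgi transport, was higher after Nmd3 siRNA (0.24, adjusted p = 0.00712) and scramble (0.31, adjusted p = 0.0006). Bnip1, also called Sec20, was higher after Gnl3 siRNA (0.34, adjusted p = 0.00402), with 0.02 after Nmd3 siRNA and 0.22 after scramble. Bet1, Bet1l, Stx17 and Stx18 lay between -0.03 and 0.22 and passed under no siRNA. Use1, Stx18, Bnip1 and Sec22b are known to work as 1 complex in retrograde transport to the ER, and their changes after scramble were 0.41, 0.04, 0.22 and 0.31.

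Of the 6 ER tail-anchored proteins 1, 3 and 3 were higher after Nmd3, Gnl3 and scramble siRNA, and none was lower. The shares over all genes were 24.5%, 23.3% and 25.1% higher, and 25.6%, 24.9% and 25.3% lower. Cyb5a had 81.8, 82.6 and 90.2 CPM in its ER ribosome-bound libraries with Nmd3 siRNA, 83.5, 85.8 and 79.2 CPM in those with Gnl3 siRNA and 93.6 and 93.4 CPM in those with scramble. Whole-cell levels of Cyb5a were 59.8 and 72.0 CPM with Nmd3 siRNA, 72.5 and 70.0 CPM with Gnl3 siRNA and 70.7, 72.4 and 68.4 CPM with scramble. The fractions did not overlap in the libraries used, and the log2 change was 0.35, 0.18 and 0.38 after Nmd3, Gnl3 and scramble siRNA (SE 0.07 each). The heme-degrading enzyme Hmox2 was higher after Gnl3 siRNA (0.24, adjusted p = 0.0059) and scramble (0.37, adjusted p = 5.77e-05), and with the block also after Nmd3 siRNA (0.19, adjusted p = 0.0463). Ube2j2, a ubiquitin-conjugating enzyme of ER-associated degradation, was higher after the same siRNAs (0.25 and 0.20). Vapa, Vapb and Ube2j1 lay between -0.01 and 0.12 and passed under none.

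The 7 mitochondrial members split in direction. Fis1 had 68.3, 63.6 and 66.0 CPM in its ER ribosome-bound libraries with Nmd3 siRNA, 65.5, 72.6 and 67.5 CPM in those with Gnl3 siRNA and 71.8 and 68.6 CPM in those with scramble. Whole-cell levels of Fis1 were 55.5 and 50.2 CPM with Nmd3 siRNA, 51.5 and 51.1 CPM with Gnl3 siRNA and 49.6, 48.7 and 49.8 CPM with scramble. The fractions were apart in the libraries used, whereas the excluded libraries stood at 123.2 CPM (Nmd3) and 22.1 CPM (Gnl3), beyond both ranges. Fis1 was higher by 0.31 after Nmd3 siRNA (SE 0.07, adjusted p = 0.0002), 0.38 after Gnl3 siRNA (SE 0.07, adjusted p = 1.3e-05) and 0.48 after scramble (SE 0.07, adjusted p = 1.21e-07).

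Synj2bp had 20.6, 20.5 and 24.2 CPM in its ER ribosome-bound libraries with Nmd3 siRNA, 21.2, 22.1 and 21.5 CPM in those with Gnl3 siRNA and 22.3 and 21.4 CPM in those with scramble. Whole-cell levels of Synj2bp were 25.6 and 25.2 CPM with Nmd3 siRNA, 27.8 and 24.1 CPM with Gnl3 siRNA and 28.8, 25.7 and 24.5 CPM with scramble. Within each siRNA the fractions did not overlap in the libraries used. The log2 change was -0.23 after Nmd3 siRNA (SE 0.10, adjusted p = 0.0471), -0.30 after Gnl3 siRNA (SE 0.10, adjusted p = 0.00988) and -0.29 after scramble (SE 0.10, adjusted p = 0.013). With the block the first and the last missed the threshold (adjusted p = 0.121 and 0.0719).

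Cyb5b had 132.3, 121.8 and 127.5 CPM in its ER ribosome-bound libraries with Nmd3 siRNA, 129.6, 124.6 and 123.9 CPM in those with Gnl3 siRNA and 123.6 and 130.7 CPM in those with scramble. Whole-cell levels of Cyb5b were 144.1 and 137.5 CPM with Nmd3 siRNA, 142.4 and 128.4 CPM with Gnl3 siRNA and 133.3, 133.0 and 143.9 CPM with scramble. The fractions overlapped after Gnl3 siRNA. Cyb5b was lower by a small margin after Nmd3 siRNA (-0.16, SE 0.06, adjusted p = 0.0265) and Gnl3 siRNA (-0.14, SE 0.06, adjusted p = 0.0408), and missed after scramble (-0.13, SE 0.06, adjusted p = 0.0646). With the block these were 0.0676, 0.0684 and 0.0398. The mitophagy receptors Bnip3 and Bnip3l, the antiviral adaptor Mavs and the anti-apoptotic Bcl2l1 (Bcl-xL) lay between -0.14 and 0.15 and passed under no siRNA.

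Emd, a protein of the nuclear lamina that reaches the inner nuclear membrane through the ER, had 107.8, 99.9 and 98.7 CPM in its ER ribosome-bound libraries with Nmd3 siRNA, 109.3, 110.7 and 101.3 CPM in those with Gnl3 siRNA and 104.2 and 103.9 CPM in those with scramble. Whole-cell levels of Emd were 57.4 and 80.6 CPM with Nmd3 siRNA, 86.6 and 81.3 CPM with Gnl3 siRNA and 77.5, 79.7 and 82.6 CPM with scramble. The fractions were apart in every siRNA, with Nmd3 whole-cell replicate 1 the lowest library. The log2 change was 0.55, 0.31 and 0.35 after Nmd3, Gnl3 and scramble siRNA (SE 0.10 each), and with the block it missed the threshold after Gnl3 siRNA (adjusted p = 0.0789) and scramble (adjusted p = 0.0906). A pseudogene, Gm14686, overlaps Emd on the same strand.

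**Figure D2:**
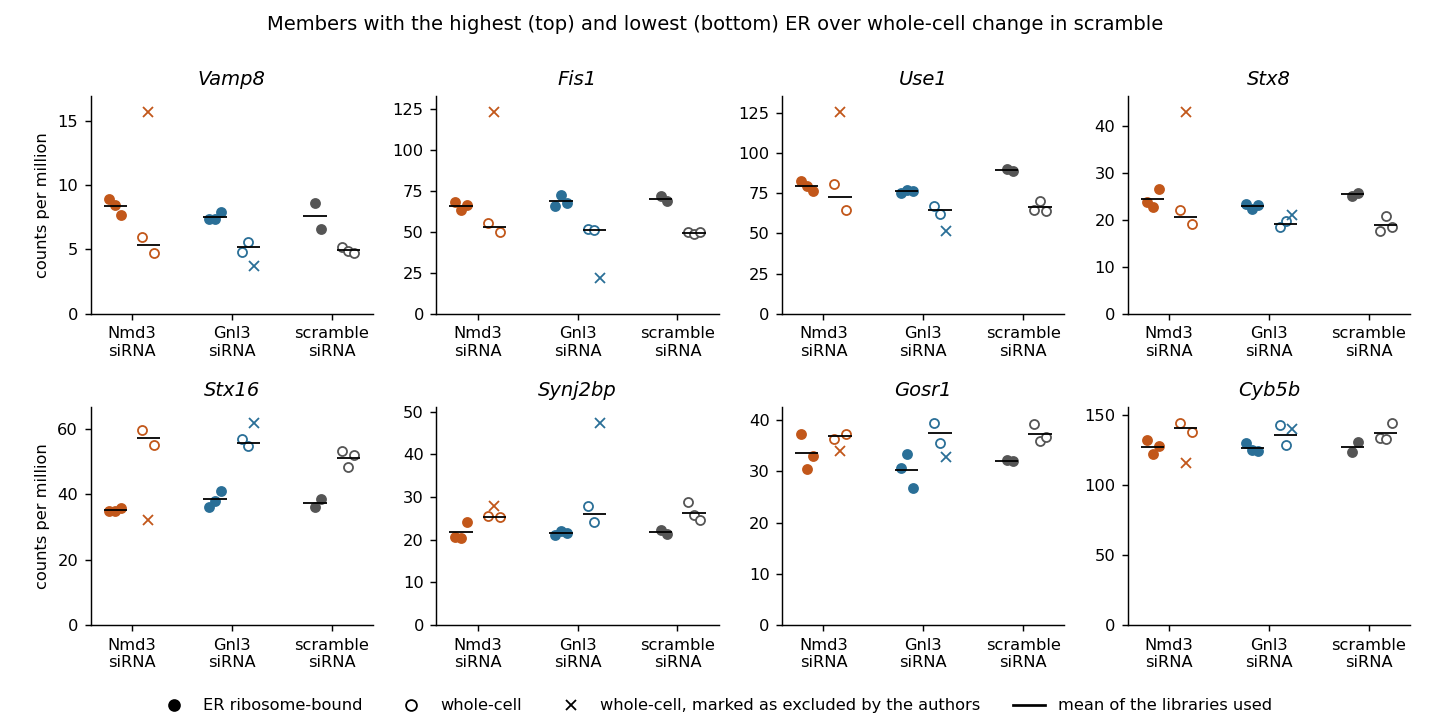
CPM (y axis) in every library for the 4 members with the highest (top) and the 4 with the lowest (bottom) ER over whole-cell change after scramble siRNA; filled points are ER ribosome-bound, open points whole-cell, crosses the whole-cell libraries the authors excluded, and lines the mean of the libraries used. Vamp8 and Fis1 sit higher on ER ribosomes than in every whole-cell library used, and Stx16 lower, while the cross of the Nmd3 library lies far above the rest for Vamp8 (15.7 CPM) and Fis1 (123.2 CPM).

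In the main test, which used no block, Cyb5a, Emd, Fis1, Stx4a, Stx5a, Vamp8 and Vti1b were called higher after all 3 siRNAs. Stx16 and Synj2bp were called lower after all 3. In all, 18 members were called after at least 1 siRNA, 20 after none, and 28 had the same sign after all 3. With the lysate number as a block, Emd, Stx5a and Synj2bp missed the threshold after at least 1 siRNA. With all 17 libraries only Stx16 was called after all 3. The counts of the main test were not made over all genes, of which 23.3% to 25.1% were higher and 24.9% to 25.6% lower after a single siRNA. The ratios come from separate libraries for each siRNA. Across the 38 members they correlated at Pearson's r = 0.86 between Nmd3 and Gnl3 siRNA, 0.86 between Nmd3 and scramble and 0.91 between Gnl3 and scramble. These are correlations across genes that share a fit and lengths, given as a description.

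The members' ratio followed transcript length more than coding length. Over all 14276 genes with a coding length, the log2 change after scramble correlated with log2 coding length at r = -0.48 (Spearman's rho = -0.52) and with log2 transcript length at r = -0.46 (rho = -0.52). Genes in the shortest fifteenth by coding length (median 336 bases) had a median change of 0.44, and those in the longest (median 5532 bases) -0.90. The members have short coding sequences, with a median of 718.5 bases against 1374 over all genes, but a median transcript length of 2810 bases against 2960.5. Across the 38 members r was -0.64 with transcript length (rho = -0.59), -0.65 with the length outside the coding part (rho = -0.61) and -0.14 with coding length (rho = -0.07). Hydropathy of the anchor (r = -0.02) and the number of residues after it (r = 0.02) gave r near 0. All of these are descriptions over genes of the same libraries.

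Vamp8, Fis1, Cyb5a and Use1, with transcripts of 820, 786, 833 and 973 bases, are the shortest of the members and were among those with the highest ratio. Stx16, Cyb5b, Gosr1 and Synj2bp, with 3865, 4316, 4289 and 4655 bases, had the lowest ratios. Stx8, with 4394 bases, and Vapb, with the longest transcript at 7029 bases, lay above the run of the others at 0.40 and 0.04. Stx17, with 5770 bases, and Stx6, with 4589, are given from the fit of all 17 libraries, unlike the values above. They stood there at 0.12 (SE 0.24) and 0.09 (SE 0.12), neither called. With a trend on transcript length as the offset, an alternative added after the data were seen, 4 members were higher and 10 lower after Nmd3 siRNA, 4 and 8 after Gnl3 siRNA, and 6 and 3 after scramble, with medians of -0.05, -0.04 and -0.02. Over all genes in that fit 22% were higher and 28.4% lower after Nmd3 siRNA, 21.3% and 27.3% after Gnl3 siRNA, and 22.2% and 25.9% after scramble. The transcript models come from the annotation, not from these cells, and which isoforms the cells used was not tested.

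**Figure D3:**
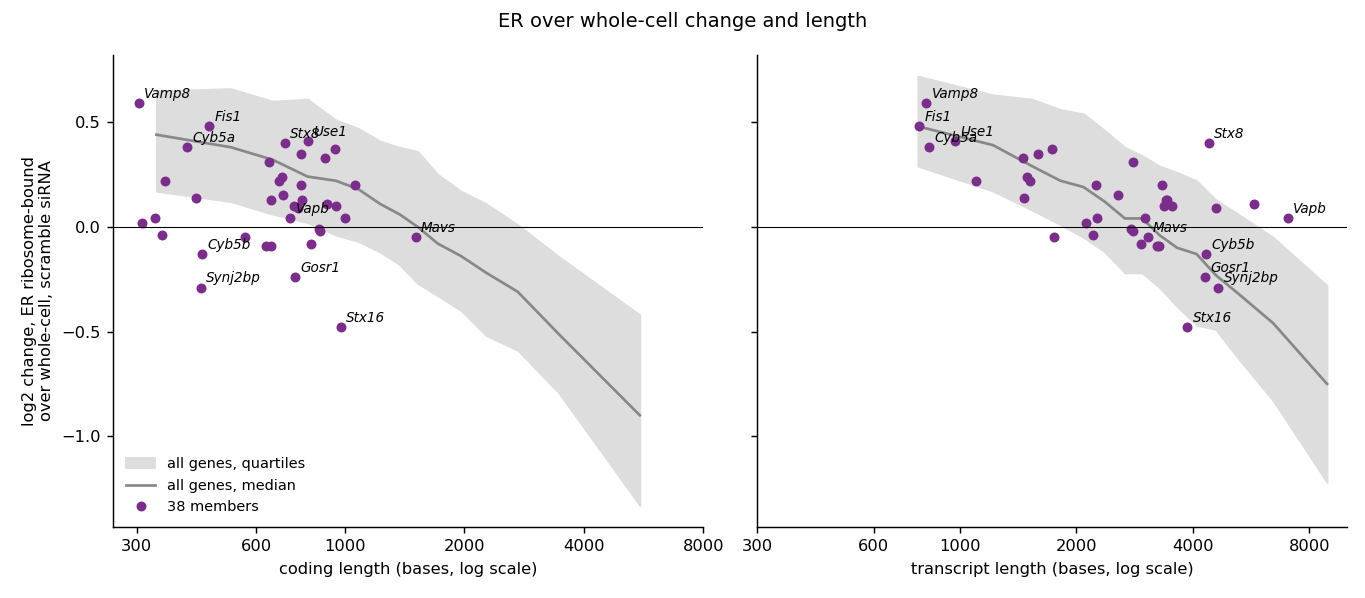
Log2 change of ER ribosome-bound over whole-cell RNA after scramble siRNA (y axis) against coding length (left) and transcript length (right), in bases on log axes; the line is the median and the band the quartiles of all genes in 15 bins of equal number, and the points are the 38 members. On the left most members lie below the line. On the right they lie around it, with values from Vamp8 (0.59) to Stx16 (-0.48).

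Some members have a close relative in the list, which allows the ratio of both mRNAs to be compared between fractions within each library. Of 9 such pairs, Cyb5a and Cyb5b, the ER and mitochondrial forms of cytochrome b5, differed most. The log2 ratio of Cyb5a to Cyb5b lay between -0.69 and -0.40 in the 8 ER ribosome-bound libraries (median -0.55) and between -1.27 and -0.88 in the 7 whole-cell libraries (median -0.93), with no overlap. The difference was 0.52 after Nmd3 siRNA, 0.32 after Gnl3 siRNA and 0.51 after scramble, 0.45 on average. A two-sided exact permutation test within siRNA gave p = 0.001, the smallest that 1000 arrangements can give (adjusted p = 0.009 over 9 pairs). It moved fraction labels among all libraries of an siRNA without keeping both fractions of a lysate together, and no paired form was run. The excluded Nmd3 whole-cell library, at -0.35, lay above all 8 ER ribosome-bound libraries, and the excluded Gnl3 one, at -0.77, below all 8. With both the difference was 0.35 (exact permutation p = 0.006, adjusted p = 0.0315). The pair also differs in transcript length, 833 against 4316 bases, at like coding lengths of 402 and 438 bases.

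Relative to Vti1b, Vti1a was lower on ER ribosomes by 0.25 (exact permutation p = 0.003, adjusted p = 0.0135). Bet1 was higher relative to Bet1l by 0.13 (exact permutation p = 0.014, adjusted p = 0.042). Neither difference passed with all 17 libraries (-0.19, exact permutation p = 0.324, and -0.18, p = 0.507), and that of Bet1 changed sign. These pairs also differ in transcript length, 3405 bases for Vti1a against 1490 for Vti1b, and 1516 for Bet1 against 2268 for Bet1l. The part of length in the pair differences was not tested. The other 6 pairs, Stx2 and Stx3, Stx7 and Stx12, Ube2j1 and Ube2j2, Vapa and Vapb, Bnip3 and Bnip3l, and Vamp2 and Vamp3, gave differences of -0.10 to 0.21 and adjusted p-values of 0.054 to 0.442. With all 17 libraries 2 of these 6 passed, Stx7 and Stx12 (0.21, exact permutation p = 0.007, adjusted p = 0.0315) and Stx2 and Stx3 (0.35, exact permutation p = 0.0118, adjusted p = 0.0352), where they stood at 0.15 and 0.21 in the 15 libraries.

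Other genes of the same pathways give the members' ratios a scale. For each list below, the share over all genes was 23.3% to 25.1% higher and 24.9% to 25.6% lower after a single siRNA. The p24 and lectin cargo receptors have a signal peptide and travel between ER and Golgi like many of the SNAREs. Of these, 10 of 11 were higher and 1 lower after each siRNA, with medians of 1.18, 1.02 and 0.95 after Nmd3, Gnl3 and scramble siRNA, against 0.05, 0.05 and 0.10 for the members. The cargo receptors Tmed9 and Tmed10 stood at 1.22 (SE 0.06) and 1.04 (SE 0.06) after scramble, beyond every member, and Tmed5 at -0.21. The cytosolic COPI and COPII coat subunits were mostly lower, 12 of 19 after each siRNA with 5 higher, and medians of -0.33, -0.41 and -0.37. Among them Copa stood at -0.79 (SE 0.09) and Sar1b, the small GTPase that starts the COPII coat, at 1.15 (SE 0.07) after scramble.

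A further set of tail-anchored proteins, not among the members, gave 10 higher and 8 lower of 31 tested after Nmd3 siRNA, 11 and 5 after Gnl3 siRNA, and 11 and 6 after scramble, with medians of -0.01, 0.00 and 0.05. Its values after scramble ran between -2.27 for Golgb1 (giantin, whose coding sequence is very long) and 0.94, a wider range than that of the members. Sec61b, the tail-anchored subunit of the ER translocon, stood at 0.57 (SE 0.07) and the apoptosis effector Bax at 0.81 (SE 0.05). Of 5 tested SNAREs without a membrane-spanning anchor none was higher, and 1, Snap23 after scramble, was lower (-0.18, SE 0.07, adjusted p = 0.0287). Their medians were -0.01, 0.02 and 0.07.

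The insertion machinery that handles the members' proteins gave 15 higher calls of 22 after each siRNA, with 4, 3 and 4 lower after Nmd3, Gnl3 and scramble siRNA. The EMC subunits Emc10 and Emc4 stood at 1.18 and 1.04 after scramble (SE 0.06 and 0.07), and the receptor subunits Wrb (Get1) and Camlg at 0.70 and 0.73. Its cytosolic chaperones differed less, with the targeting ATPase Asna1 (Get3) at 0.23 (SE 0.06) and Bag6 at -0.29 (SE 0.09). SNARE regulators and tethers, cytosolic or peripheral proteins, gave 15, 19 and 17 lower calls of 24 after Nmd3, Gnl3 and scramble siRNA, and 1 higher each. Nsf, the ATPase that takes SNARE complexes apart, stood at -0.35 (SE 0.07), and its partner Napa was the gene called higher after scramble (0.26, SE 0.06). Set beside these lists, the members' median lay between those of the cargo receptors and the coat subunits. With the coding length offset after scramble the medians were 0.70 for the cargo receptors, 0.28 for the insertion machinery, -0.08 for the further tail-anchored proteins, -0.17 for the members and for the coat subunits, and -0.20 for the regulators and tethers. With all 17 libraries the cargo receptors had 10 higher calls after scramble, and the members had 0.

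**Figure D4:**
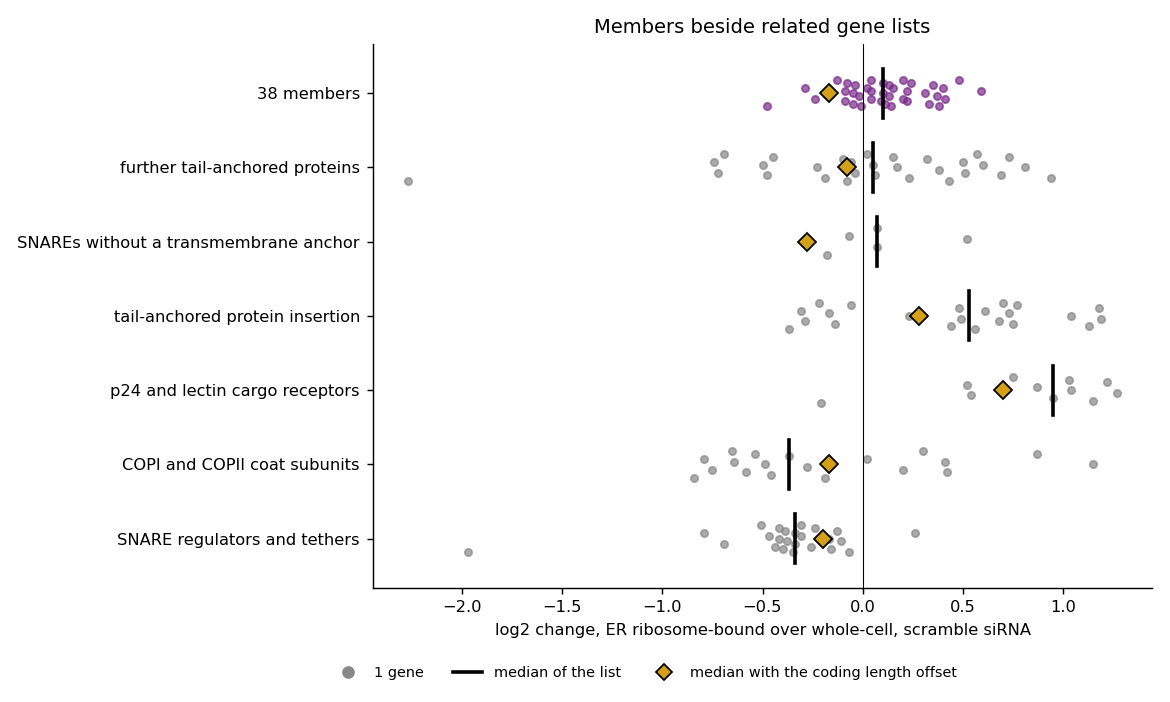
Log2 change of ER ribosome-bound over whole-cell RNA after scramble siRNA (x axis) for the 38 members and 6 related lists (rows); each point is a gene, the bar the median, and the diamond the median with the coding length offset. The members lie near 0 (median 0.10), the cargo receptors at a median of 0.95 and the coat subunits at -0.37; with the offset the members' median is -0.17.

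Knockdown of Nmd3 or Gnl3 left the members near their scramble level in both fractions, and the 2 comparisons within a fraction share their scramble libraries. On ER ribosomes after Nmd3 siRNA 0 members were called, where 1.17% of 17632 genes were (edgeR, 5 members and 2050 genes at an unadjusted p under 0.05, and 0 members by DESeq2). The largest changes there were 0.32 for Stx2 (SE 0.12, adjusted p = 0.269), -0.27 for Stx3 (SE 0.08, adjusted p = 0.138) and -0.22 for Vamp3 (SE 0.06, adjusted p = 0.0979). Vamp3 passed without Nmd3 ER ribosome-bound replicate 1 (-0.27, adjusted p = 0.0408), where 1.36% of 17549 genes did. With no filter on low counts Stx3 (adjusted p = 0.0108) and Vamp3 (adjusted p = 0.0414) passed. Without replicate 2, which stood apart, 0 members were called, where 2.09% of 17549 genes were.

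On ER ribosomes after Gnl3 siRNA 1 member was called, where 2.68% of genes were. Use1 fell by 0.25 on the log2 scale (SE 0.06, adjusted p = 0.0186), to the 75.3 to 77.3 CPM given above, against 89.2 to 90.4 CPM after scramble, with no overlap. The call was lost without any 1 of the 5 libraries compared (adjusted p = 0.0566 to 0.3) and DESeq2 made it too (adjusted p = 0.0196). Stx2 stood at 0.38 (SE 0.12, adjusted p = 0.0966) and Bcl2l1 at 0.16 (SE 0.07, adjusted p = 0.264).

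In whole-cell RNA 0 members were called after Nmd3 siRNA, where 0.166% of 17490 genes were, and 0 after Gnl3 siRNA, where 0.812% were. At an unadjusted p under 0.05 there were 2 members (Bcl2l1 and Stx16) and 3 (Bcl2l1, Stx2 and Ube2j1), and DESeq2 also called 0. The result after Nmd3 siRNA rests on replicate 3: without it, which leaves replicate 1 alone and assumes that it varies like the other groups, Emd (-0.50), Vamp2 (-0.51) and Cyb5a (-0.26) were lower and Use1 (0.26) higher, where 5.7% of 17957 genes were called. Nmd3 whole-cell replicate 1, with 1.15% mitochondrial RNA, lay outside the range of the other whole-cell libraries used for 22 members. The others did so for 4 to 13 members, and the share over all genes was not counted. The part of Nmd3 whole-cell replicate 1 in these results was not tested further.

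The siRNA effect on the ER over whole-cell ratio was tested as the difference between an siRNA and scramble. For Nmd3 0 of 18271 genes were called by edgeR (1078 at an unadjusted p under 0.05) and for Gnl3 0 (649), with 2 and 0 genes and 0 members by DESeq2. Use1 had the lowest value of the members in both, -0.28 (SE 0.10, adjusted p = 0.79) and -0.21 (SE 0.10, adjusted p = 0.999), neither past the test. Stx16 stood at -0.23 for Nmd3 (SE 0.10, adjusted p = 0.828) and Cyb5a at -0.20 for Gnl3 (SE 0.10, adjusted p = 0.999). Without Nmd3 whole-cell replicate 3, Use1 (-0.41, adjusted p = 0.0197) and Emd (0.50, adjusted p = 0.00302) passed for Nmd3, where 1.6% of 19015 genes did. The median change of the members was -0.05 on ER ribosomes and 0.02 in whole-cell RNA after Nmd3 siRNA, and -0.02 and 0.02 after Gnl3 siRNA.

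**Figure D5:**
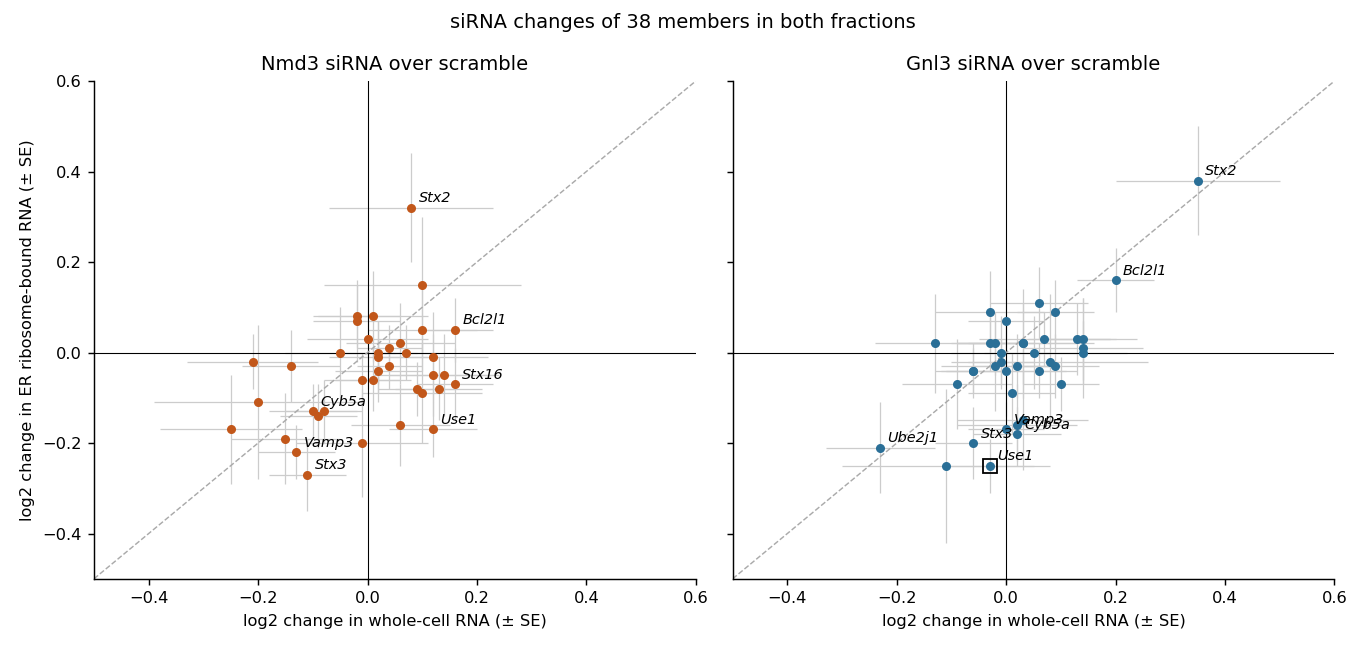
Log2 change of the 38 members on ER ribosomes (y axis, ± SE) against that in whole-cell RNA (x axis, ± SE) for Nmd3 siRNA (left) and Gnl3 siRNA (right) over scramble; the dashed line marks equal change and the square the only called member, Use1. Most points lie within 0.2 of 0, and Stx2 lies highest in both panels (0.32 and 0.38 on ER ribosomes).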

How the data were processed

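Counts per gene of 17 libraries were used as deposited, raw and unnormalized, made by the authors with STAR 2.7.9a, HTSeq 0.11.2 and the GRCm39 build, per the submitters' processing notes, which also name DESeq2. The annotation release and the strand setting are not given in the sources used here. The 5 lines that name no gene were left out (no feature 46.6% to 48.4% of each library's entries, not unique 5.11% to 10.2%, ambiguous 0.357% to 0.568%). Symbols (52083 of 55416 IDs), lengths and coding sequences came from GENCODE M21 (GRCm38), 1 transcript a gene, so no coordinates are given.

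CPM are counts per M gene counts. Comparisons used the edgeR 4.0.16 quasi-likelihood test in R 4.3.3 (filterByExpr, TMM, robust fit), with Benjamini-Hochberg adjustment across every gene tested. The SE is the absolute log2 change over the square root of F. The fits held 15 libraries for the fractions (18271 genes), 8 for ER ribosome-bound RNA and 7 for whole-cell RNA. A lysate gave both its fractions, so same-numbered fractions are paired by design; their residuals correlated between -0.03 and 0.02. The main tests used no block. On simulated counts for the Nmd3 comparison of fractions (17699 genes), 73 of 100 changes of 0.5 and 98 of 100 of 1 were called. The simulation gave all genes the same spread and changed no gene of the lowest counts. Changes below 0.5, where most members lay, were not simulated.

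Alternatives were DESeq2 1.42.0, other scalings, no filter, length offsets, a replicate block, all libraries and leaving out single libraries. Library values are given for the 4 members with the highest and the 4 with the lowest ratio after scramble siRNA and for called members of the siRNA comparisons. Those of Cyb5a and Emd, the pair test, the transcript length offset and the fit without 2 further Nmd3 libraries were added after the data were seen. The members and lists were chosen with earlier results of these data known.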

Additional observations from a re-analysis of the deposited data

Results flagged for a closer look

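In the whole-cell library of Nmd3 siRNA replicate 2, which the authors excluded, 3 members stood more than 2 times as high as in the highest whole-cell library used. Vamp8 was at 15.71 CPM there, against at most 5.93 CPM in the whole-cell libraries used. Bet1, a SNARE of ER-to-Golgi transport, was at 46.83 CPM, against at most 19.9 CPM. Fis1 was at 123.2 CPM, against at most 55.5 CPM. The ratios were 2.65, 2.36 and 2.22. In that library 36 of 38 members lay outside the range of the whole-cell libraries used, with log2 differences of -1.16 (Stx5a) to 1.62 (Vamp8). In the excluded Gnl3 siRNA replicate 3 it was 31 members, with -1.48 (Bet1l) to 0.87 (Synj2bp). The share of all genes outside that range was not counted. Across genes, chi-square values per gene to their replicates were 183.52 and 201.77 for the excluded Nmd3 library and 117.24 and 132.51 for the Gnl3 one.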

How the results depend on the processing

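The number of members called between fractions depended on the length offset and on the 2 excluded libraries. The values below are numbers of members called higher and lower after Nmd3, Gnl3 and scramble siRNA, which were 8 and 3, 11 and 5, and 12 and 3 in the main test. With the coding length offset they were 1 and 21, 0 and 20, and 0 and 16, and with the transcript length offset 4 and 10, 4 and 8, and 6 and 3. With all libraries they were 1 and 1, 0 and 2, and 0 and 1. With the replicate block, the lysates paired, they were 10 and 1, 10 and 5, and 10 and 2. The lower calls after Nmd3 siRNA were 5 with RLE scaling, 1 in the libraries of that siRNA alone and 1 without the 2 further Nmd3 libraries that stood apart, whole-cell replicate 1 and ER ribosome-bound replicate 2 (Stx16, with 11 higher calls). DESeq2, library totals as the only scaling and no filter on low counts kept the other counts within 1.5 times.

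Leaving out 1 replicate gave 7 to 11 higher and 1 to 4 lower after Nmd3 siRNA, 7 to 9 and 1 to 6 after Gnl3 siRNA, and 8 to 12 and 1 to 3 after scramble. The lower calls came to 1 without ER ribosome-bound replicate 2 (Nmd3), whole-cell replicate 1 (Gnl3), and whole-cell replicate 1 or ER ribosome-bound replicate 3 (scramble). The higher calls after Gnl3 siRNA came to 7 without whole-cell replicate 1 or 2. In the siRNA comparisons it gave 0 to 1 lower on ER ribosomes for Nmd3 (Vamp3), 0 to 0 for Gnl3 (main 1, Use1), 0 to 1 higher and 0 to 3 lower in whole-cell RNA for Nmd3, 0 to 1 higher and 0 to 1 lower for the Nmd3 effect on the ratio, and 0 to 0 for all others. Without a filter 2 members were lower on ER ribosomes after Nmd3 siRNA (Stx3 and Vamp3). With the replicate block, where numbers are shared between siRNAs by number only (residual correlations of -0.05 to 0.05), 0 were lower after Gnl3 siRNA (Use1, adjusted p = 0.0537).

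Some changes between fractions turned sign. With the coding length offset after scramble these were Stx6 (-0.20), Vamp3 (-0.36), Vapa (-0.21), Vapb (-0.27), Sec22b (-0.03), Bet1l (-0.34), Vti1b (-0.08), Bcl2l1 (-0.17), Cyb5a (-0.003) and Ube2j2 (-0.09). After Nmd3 siRNA they were Vamp2 (-0.31), Vapa (-0.26), Sec22b (-0.09), Bet1 (-0.27), Bet1l (-0.35), Bnip1 (-0.29), Bcl2l1 (-0.27), Fis1 (-0.06), Cyb5a (-0.01) and Ube2j2 (-0.16). After Gnl3 siRNA they were Stx6 (-0.23), Stx7 (-0.25), Vamp4 (-0.33), Vapa (-0.16), Vapb (-0.23), Bet1l (-0.30), Vti1b (-0.11), Use1 (-0.06), Bnip3 (-0.32), Bcl2l1 (-0.18), Cyb5a (-0.16) and Ube2j2 (-0.02). With the transcript length offset after scramble they were Stx4a (-0.01), Vamp3 (-0.19), Vti1b (-0.10), Use1 (-0.01) and Cyb5a (-0.05). After Nmd3 siRNA they were Stx4a (-0.03), Vapb (0.48), Use1 (-0.28), Bnip1 (-0.37), Fis1 (-0.10) and Cyb5a (-0.06), and after Gnl3 siRNA Vamp4 (-0.30), Vti1b (-0.12), Use1 (-0.17), Bnip1 (-0.02), Bnip3 (-0.25), Cyb5a (-0.20) and Hmox2 (-0.02). With all libraries after Nmd3 siRNA, where the median of all genes moved to -0.11, they were Stx4a (-0.16), Vamp8 (-0.36), Sec22b (-0.14), Vti1b (-0.32), Fis1 (-0.48) and Cyb5a (-0.01). Apart from these offsets and excluded libraries, the cause of a changed count was not tested. Over all values of single members, 4902 kept their direction and side of the threshold, 149 no longer passed, 99 newly passed and 56 turned sign.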
